A study of Mus musculus with 6 samples.

Results

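The insulin-like growth factor (IGF) axis was examined in primary mammary tumor cells of the mouse that had been sorted into metastasis-initiating cells (MICs) and non-MICs. It was taken as 10 genes for ligands, receptors and binding proteins (Igf1, Igf2, Igf1r, Igf2r, Igfbp2, Igfbp3, Igfbp4, Igfbp5, Igfbp6 and Igfbp7), and all 10 have values among the 22310 genes of the deposited table. The family was chosen by function, and within it Igf1 and Igfbp3 were picked by their rise in MICs in this same table, so their difference between the populations is given as a description and carries no test. The other 8 genes were tested.

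The tumors arose in MMTV-PyMT mice on the FVB/N background, in which the mammary tumor virus promoter drives polyoma middle T antigen in mammary epithelium. The mice were about 12 to 18 weeks old. Cells were cultured overnight on collagen in medium with 2% serum, 10 µg/ml insulin and 20 ng/ml EGF, so both populations had been exposed to insulin, a ligand of the same receptor family. They were then sorted as Lin-CD24+CD90+ (MICs) or Lin-CD24+CD90- (non-MICs), where the lineage gate removes blood and endothelial cells, and each population gave 3 sequenced libraries that carry the numbers 1 to 3. Where 3 values stand in a row they follow these replicate numbers. The labels name the genotype WT, and neither they nor the methods say how many animals went into a library.

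In this pathway IGF-I and IGF-II bind a receptor tyrosine kinase, the product of Igf1r, which signals through insulin receptor substrates to growth and survival. The product of Igf2r has no kinase and carries IGF-II, together with enzymes tagged with mannose 6-phosphate, to the lysosome. Secreted binding proteins hold the ligands in the extracellular space, where they can block or prolong their action until proteases release them. In the mammary gland much of the ligand is known to come from the stroma, while epithelial cells carry the receptors.

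Recovered read totals were between 31467281 and 51759769 per library, with replicate 3 the deepest in both populations. Thy1, which encodes CD90, had 1399, 271 and 1117 reads in MICs against 16, 20 and 18 in non-MICs. The libraries therefore matched their gates. The luminal markers Epcam, Krt8 and Krt18 had at least 8732 reads in each library. Replicate 1 stood apart in both populations by its myoepithelial transcripts, with 8 basal or myoepithelial markers summing to 12100 RPM (reads scaled to a library total of 1000000) in MIC replicate 1 and to 4110 in non-MIC replicate 1, against 688 to 2060 in the other libraries. Same-numbered libraries departed from their group means together, so results are also given with the replicate number as a block, meaning that each MIC library is compared with its own non-MIC library. Levels are RPM per kilobase of exon (RPKM). Differences are on the log2(value + 1) scale, on which changes of weakly expressed genes come out too small.

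Transcripts of the axis ran from abundant binding proteins to a ligand that was barely detected. By the median over the 6 libraries, Igfbp4 was first at 83.1 RPKM, followed by Igfbp7 at 70.1, Igf2r at 25, Igfbp2 at 17.8, Igfbp5 at 6.15, Igf1r at 3.00, Igfbp3 at 2.01, Igf1 at 0.118, Igfbp6 at 0.0701 and Igf2 at 0.00175. The order was not fixed at its top, since Igfbp4 exceeded Igfbp7 in only 3 of 6 libraries, and Igf2r exceeded Igfbp2 in 4. Igfbp5 lay above Igf1r in all 6, and Igf1 lay above Igfbp6 in 2. RPKM used the union of a gene's annotated exons, 9904 bases for Igf1 and 1209 for Igfbp7, so a gene that uses a short isoform is understated.

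**Figure D1:**
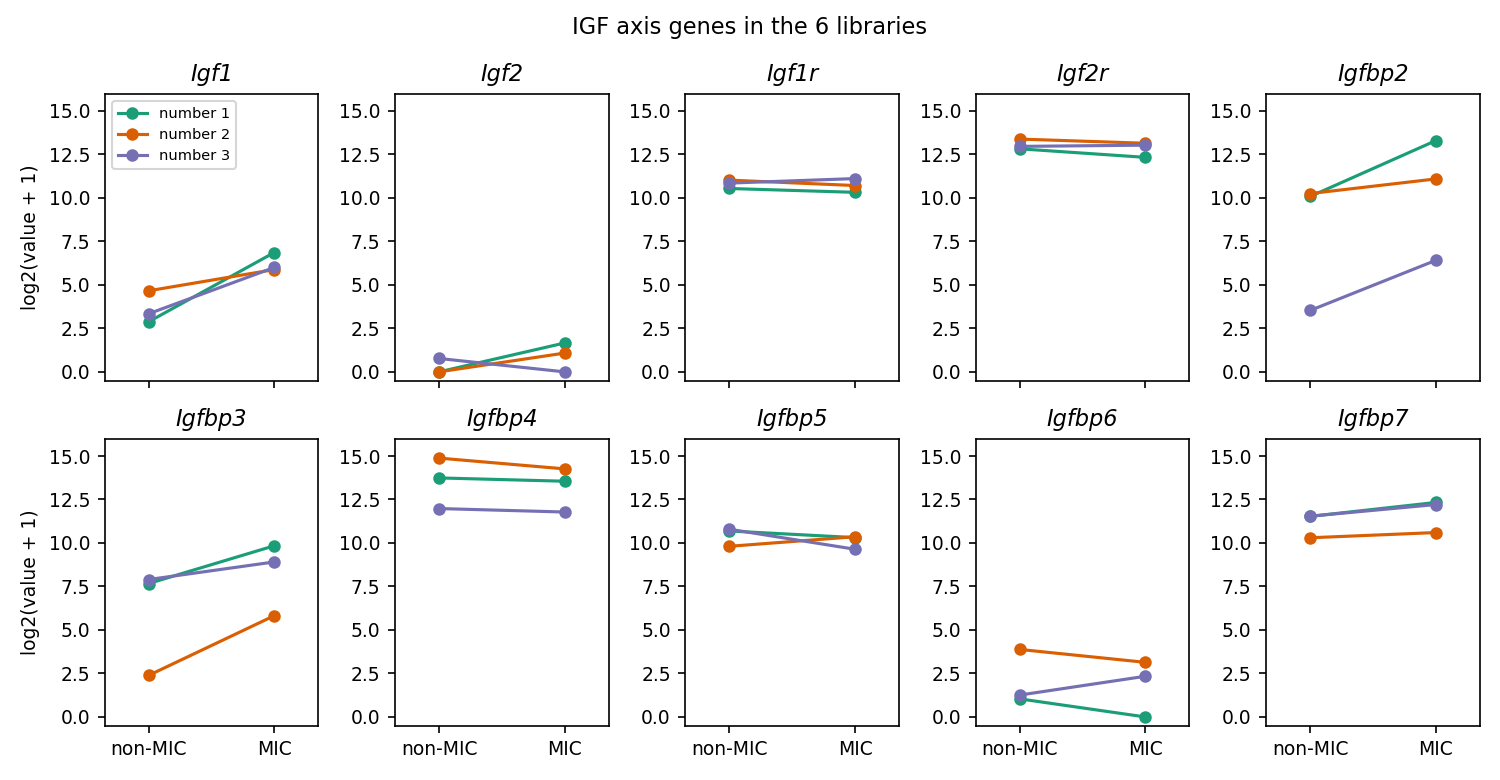
Each panel plots log2(value + 1) of 1 gene on the vertical axis for non-MIC and MIC libraries, with a line joining the libraries of the same number; there are 3 libraries per population. The lines of Igf1, Igfbp2, Igfbp3 and Igfbp7 slope up in all 3 pairs, those of Igfbp4 slope down in all 3, and Igf2 stays near 0.

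Of the ligands, Igf1 was higher in MICs in each pair. Igf1 (ENSMUSG00000020053, GRCm38 chromosome 10, 87858265 to 87937042, plus strand) had 107, 52 and 93 reads in MICs, or 3.30, 1.65 and 1.80 RPM. In non-MICs it had 6, 23 and 13 reads, or 0.181, 0.694 and 0.260 RPM. The groups did not overlap, as was so with MICs higher for 2.69% of all genes, and nothing is read from this for a gene picked on the contrast. The 95% Poisson interval was 1.23 to 2.17 RPM for MIC replicate 2 and 0.440 to 1.04 RPM for non-MIC replicate 2. These intervals describe each count and are no test of the difference. The differences within pairs were 3.98, 1.22 and 2.66 on the log2 scale, with a mean of 2.62, or 6.15-fold, and a standard error of 0.50 with the block. Igf1 was among the lowest-expressed members even in MICs, at 0.227 ± 0.0919 RPKM (SD, n = 3) against 0.0382 ± 0.0279 (SD, n = 3) in non-MICs. Intervals of this kind cover counting error only, since reads were not collapsed by molecular identifiers.

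Fibroblasts and macrophages are known sources of Igf1, so the markers of both were read beside it. The 9 fibroblast markers summed to between 19.2 and 62.0 RPM in MICs and between 16.8 and 33.1 in non-MICs. Within pairs, their sum in MICs was 1.87, 0.907 and 3.42 times that in non-MICs. In pair 2, where Igf1 was 2.33-fold higher in MICs, the single markers went both ways. Col1a1 and Col3a1 were at 0.65 and 0.794 times their non-MIC level. Pdgfra, Pdgfrb, Col1a2, Dcn, Lum and Fap were at 1.07, 1.12, 1.49, 1.26, 3.22 and 1.04 times theirs. Dpt had 0 reads in both libraries of that pair. Of the 9, 4 (Pdgfra, Col1a2, Dcn and Lum) were higher in MICs in all 3 pairs, beside 12.5% of all genes. Limma with the block called 0 of the 9, with Col1a2, Dcn and Lum at an unadjusted p under 0.05, and edgeR with the block called Col1a2 and Dcn (adjusted p = 7.89e-12 and 0.0152). Among the defining markers Dcn, a matrix proteoglycan, had 55, 5 and 81 reads in MICs and 25, 4 and 7 in non-MICs, and none of the 3 defining markers was at 0 in any library. The 6 leukocyte and macrophage markers with values summed to between 6.44 and 58.3 RPM in MICs and between 6.74 and 35.8 in non-MICs, with ratios of 0.955, 1.63 and 0.862. Of the defining markers, Ptprc, which encodes the pan-leukocyte antigen CD45, had 0, 9 and 14 reads in MICs and 0, 6 and 3 in non-MICs, and Csf1r, a receptor gene of macrophages, had 104, 50 and 146 against 87, 101 and 151. In pair 1, where Igf1 differed most, Csf1r and Mrc1 (20 against 11 reads) were higher in MICs, and Cd68 (56 against 80) and Lyz2 (29 against 44) were lower. Whether cells of these types contributed to the difference in Igf1 was not tested, and in sorted bulk samples more cells of a type and more RNA per cell cannot be told apart.

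Igf2, the fetal growth factor gene that is imprinted and expressed from the paternal copy, was barely detected. It lies on chromosome 7 of GRCm38 from 142650766 to 142666816 on the minus strand and had 2, 1 and 0 reads in MICs and 0, 0 and 1 in non-MICs. No library exceeded 3 reads, which is 0.0580 to 0.0953 RPM at these depths, so no fold change is given. H19, its maternally expressed noncoding neighbour on the same strand, whose nearest end lies 72622 bases away, had 41, 2 and 119 reads in MICs and 29, 15 and 247 in non-MICs. Except in MIC replicate 2, where H19 had only 2 reads, transcripts of H19 were thus present in libraries in which Igf2 was near 0. H19 did not pass (log2 difference -0.99, limma adjusted p = 1, and 0.475 with the block).

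The receptors did not differ beyond the spread between libraries, and their ranges over the libraries were the narrowest among the 8 members with fold changes. Igf1r (chromosome 7, 67952827 to 68233668, plus strand) was at 2.17, 2.86 and 3.75 RPKM in MICs and at 2.53, 3.52 and 3.14 in non-MICs, a range of 1.73-fold over all 6 libraries. The difference was below 0 in pairs 1 and 2 but not in pair 3, and the groups overlapped. Its log2 difference was -0.09 (standard error 0.26, limma adjusted p = 1, and 0.869 with the block), with a 95% interval of -0.46 to 0.29 in the blocked fit. Igf2r (chromosome 17, 12682406 to 12769664, minus strand) was at 15.8, 27.8 and 25.6 RPKM in MICs and 22.2, 32.7 and 24.4 in non-MICs. Its log2 difference was -0.22 (standard error 0.28, limma adjusted p = 1, and 0.642 with the block), with a 95% interval of -0.60 to 0.16. MIC replicate 1 had the lowest level of both receptors. The ratio of Igf2r to Igf1r was between 6.83 and 9.71 in all 6 libraries, so the lysosomal receptor outnumbered the signaling receptor in transcripts throughout.

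Among the binding proteins, Igfbp2 rose in MICs in the comparison within pairs. Igfbp2 encodes a secreted binding protein that prefers IGF-II and also binds integrins. It lies on chromosome 1 from 72824503 to 72852474 on the plus strand, and was at 155, 33.8 and 1.30 RPKM in MICs and at 16.7, 18.9 and 0.163 in non-MICs. In reads this was 9309, 1962 and 124 against 1022, 1155 and 15. Both libraries of pair 3 were low and MIC replicate 1 was by far the highest, so the groups overlapped. Each pair still had the higher level in MICs, by 9.27-fold, 1.79-fold and 7.37-fold as taken from log2(value + 1). The log2 difference was 2.31. Limma without the block gave it a standard error of 2.19 (adjusted p = 1), and limma with the block one of 0.34 (adjusted p = 0.0189). Of the 22310 genes, limma called 0% without the block, where 322 had an unadjusted p below 0.05. With the block it called 0.13%, and 2501 had an unadjusted p below 0.05. Of the 8 tested members 1, Igfbp2, was called with the block, and 0 without it, with 2 (Igfbp2 and Igfbp7) and 0 at an unadjusted p below 0.05. The median log2 difference of the 8 was -0.15, against -0.04 over all genes. The quasi-likelihood test of edgeR, run on recovered reads with the block, which called 1.41% of all genes, also called Igfbp2 and no other tested member (adjusted p = 1.99e-18), whereas DESeq2 with the block did not (adjusted p = 0.0986). Without pair 1 or pair 3, the blocked limma fit no longer passed for Igfbp2 (log2 difference 1.86 and 2.03, adjusted p = 0.233 and 0.453).

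Of the 8 basal or myoepithelial markers, 5 were higher in MICs in all 3 pairs, beside 12.5% of all genes. Limma with the block called 4 of the 8 (Krt5, Acta2, Myh11 and Cnn1). The summed level of the 8 in MICs was 2.95, 1.01 and 1.53 times that in non-MICs in pairs 1, 2 and 3. In pair 2 Krt14, Krt17 and Oxtr were at 0.535, 0.918 and 0.627 times their non-MIC level. Krt5, Trp63, Acta2, Myh11 and Cnn1 were at 4.11, 1.48, 5.2, 4.76 and 4.46 times theirs in that pair. In both populations the sum of the 8 was lower in pair 2 than in pair 3, and Igfbp2 was higher. The single markers were mixed. Trp63 was higher in pair 2 than in pair 3 in MICs (1.30 against 1.09 RPKM) and in non-MICs (0.874 against 0.783). Myh11 and Oxtr were so in non-MICs alone, and the rest in neither. The part of these markers in the difference of Igfbp2 was not tested. Of the other marker lists, luminal genes summed to 6050 to 16900 RPM in MICs and 7920 to 20000 in non-MICs, pericyte genes to 8.0 to 15.5 and 9.24 to 22, and endothelial genes to 0.908 to 1.48 and 0.454 to 1.26. Single genes moved within these sums. Elf5, a luminal progenitor factor, was lower in MICs in all 3 pairs (log2 difference -1.09, adjusted p = 0.000449 in edgeR with the block and 0.139 in limma with the block). Of the 5 pericyte genes 3 were higher in all 3 pairs, and Cspg4 had 44, 12 and 101 reads in MICs against 13, 4 and 13 in non-MICs (log2 difference 1.98, adjusted p = 0.000684 in edgeR with the block and 0.228 in limma with the block). Notch3, with most of the reads of that list, had a log2 difference of -0.68 and did not pass, and the defining Rgs5 and Kcnj8 had at most 3 reads in any library. The measured erythroid and adipocyte genes reached at most 0.0906 and 0.286 in any library. The promoter of Igfbp2 is shown with those of Igfbp3 and Igfbp7 because these binding protein genes were the ones higher in MICs in all 3 pairs. Each is the 250 bases before the RefSeq start on GRCm38.p6, on the strand of the gene, and capitals mark matches on either strand to the TATA box (TATAAA), the GC box (GGGCGG), AP-1 (TGANTCA), the E-box CACCTG and the TEAD motif (GGAATG). The Igfbp2 sequence, chr1:72824230-72824479, held 3 GC boxes.

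Igfbp2 promoter: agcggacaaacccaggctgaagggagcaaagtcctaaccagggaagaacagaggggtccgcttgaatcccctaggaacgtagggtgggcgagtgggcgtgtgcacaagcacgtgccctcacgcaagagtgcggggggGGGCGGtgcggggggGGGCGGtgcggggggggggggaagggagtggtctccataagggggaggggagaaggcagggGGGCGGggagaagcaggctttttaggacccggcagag

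The Igfbp3 sequence, chr11:7213924-7214173 on the minus strand, held 1 E-box match and no match to the other motifs.

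Igfbp3 promoter: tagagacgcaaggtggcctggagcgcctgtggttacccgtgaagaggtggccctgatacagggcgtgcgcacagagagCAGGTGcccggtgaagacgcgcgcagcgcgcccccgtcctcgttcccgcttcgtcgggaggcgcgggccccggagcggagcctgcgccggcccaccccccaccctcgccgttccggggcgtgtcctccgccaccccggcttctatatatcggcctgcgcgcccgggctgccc

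The Igfbp7 sequence, chr5:77408046-77408295 on the minus strand, held 4 GC boxes.

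Igfbp7 promoter: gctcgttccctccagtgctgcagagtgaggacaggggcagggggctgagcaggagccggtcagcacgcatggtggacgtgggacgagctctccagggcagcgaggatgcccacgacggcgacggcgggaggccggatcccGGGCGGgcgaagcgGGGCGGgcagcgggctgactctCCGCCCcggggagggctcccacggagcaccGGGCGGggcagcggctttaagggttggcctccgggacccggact

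Among 32851 RefSeq windows of the same length, 32.7% held the GC box, 17.2% the E-box, 12.6% the TEAD motif, 12.4% the TATA box and 6.75% the AP-1 motif. All 10 genes had windows, 14 in all, of which 6 held the GC box, 2 the E-box, 4 the TEAD motif, 2 the TATA box and 2 the AP-1 motif. The AP-1 matches were in the window of Igf1, 37 bases before its RefSeq start, and in the second window of Igfbp2, 39 bases before that start. Those windows overlap exons of the annotation used for the other values and are not shown. These matches describe the letters of the windows only.

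Igfbp3 encodes the main carrier of IGFs in serum and exceeded its non-MIC level in every pair. It lies on chromosome 11 from 7206086 to 7213923 on the minus strand. Its reads were 848, 50 and 710 in MICs against 192, 4 and 338 in non-MICs, or 8.35, 0.508 and 4.38 RPKM against 1.85, 0.0386 and 2.16. Both libraries of pair 2 were low, and MIC replicate 2 lay below non-MIC replicates 1 and 3, so the groups overlapped. The differences within pairs were 2.16, 3.44 and 1.02 on the log2 scale. Their mean was 2.21, or 4.61-fold, and its standard error was 1.61 in the unblocked and 0.38 in the blocked fit. Without non-MIC replicate 2 the unblocked difference was 0.41, and without MIC replicate 2 it was 3.39. The widest difference, in pair 2, rests on 4 reads in the non-MIC library, with a 95% Poisson interval of 1.09 to 10.2 reads.

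Igfbp7 encodes a binding protein with low affinity for IGFs that is deposited in the matrix. It lies on chromosome 5 from 77349240 to 77408041 on the minus strand and was at 122, 36.6 and 112 RPKM in MICs and 69.8, 29.9 and 70.5 in non-MICs. Each pair had the higher level in MICs, by 1.74-fold, 1.23-fold and 1.59-fold, yet the groups overlapped because both libraries of pair 2 were low. It did not pass (log2 difference 0.59, standard error 0.17 with the block, limma adjusted p = 1, and 0.377 with the block; edgeR with the block, adjusted p = 0.117), with a 95% interval of 0.22 to 0.95 before adjustment. Being higher in MICs in all 3 pairs was found for 12.5% of all genes, and among the 8 tested members for 2, Igfbp2 and Igfbp7.

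Igfbp4 was the member with the highest median level and was lower in MICs in each pair. It encodes a binding protein known mainly as an inhibitor of IGF action, and lies on chromosome 11 from 99041244 to 99054392 on the plus strand. Its level was 77.4, 127 and 22.7 RPKM in MICs and 88.7, 195 and 26.2 in non-MICs. Both populations shared the same order of replicates, with replicate 2 the highest and replicate 3 the lowest. The differences within pairs were -0.20, -0.62 and -0.20, with a mean of -0.34 (standard error 0.83, limma adjusted p = 1, and 0.478 with the block) and a 95% interval of -0.72 to 0.04 in the blocked fit. Being lower in all 3 pairs was found for 18.8% of all genes and for 1 of the 8 tested members. None of the 10 genes was lower in MICs without overlap, as 3.55% of all genes were.

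Igfbp5, the convergent neighbour of Igfbp2, did not share its pattern. It encodes a binding protein tied to involution of the mammary gland, and lies on the minus strand of chromosome 1 from 72857932 to 72874884, with 5457 bases between the genes. It was at 6.05, 6.25 and 3.79 RPKM in MICs and 7.88, 4.28 and 8.42 in non-MICs. Its difference was below 0 in pairs 1 and 3 and above 0 in pair 2, and the mean of -0.33 did not pass (limma adjusted p = 1, and 0.634 with the block), with a 95% interval of -0.87 to 0.22 in the blocked fit. Igfbp6, which encodes a binding protein that prefers IGF-II, had 0, 7 and 6 reads in MICs and 1, 13 and 2 in non-MICs, too few for a fold change. Its highest library was non-MIC replicate 2, and MIC replicate 2 was next.

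**Figure D2:**
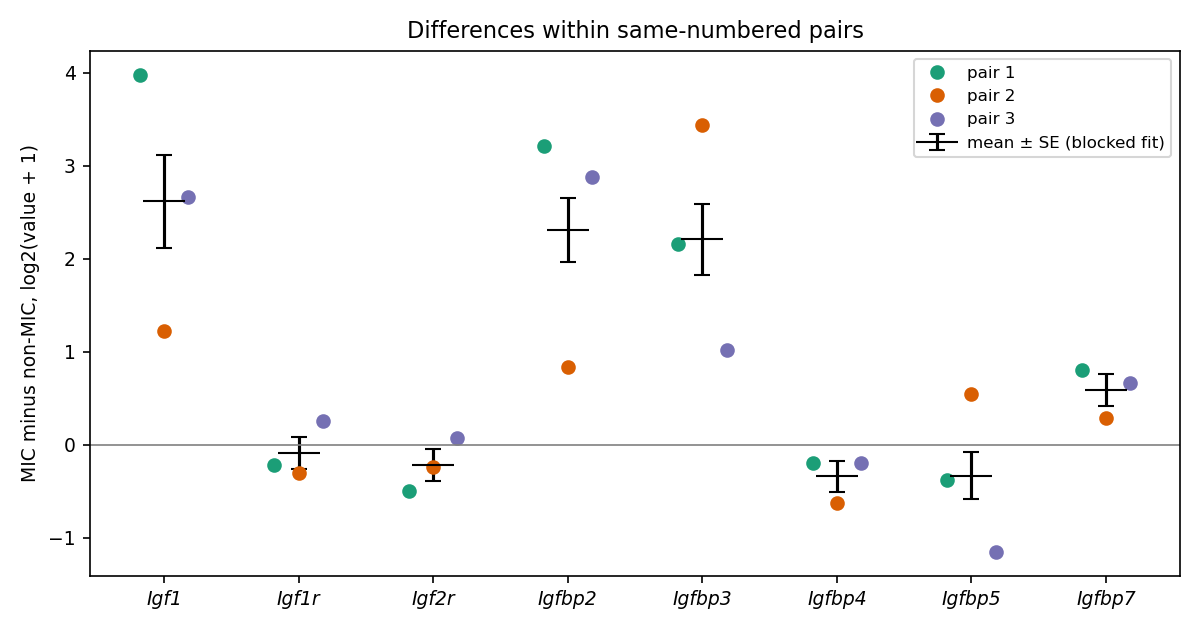
The vertical axis is the difference within same-numbered libraries, MIC minus non-MIC, in log2(value + 1), with 1 point per pair, and black bars give the mean ± SE of the fit with the replicate block; Igf2 and Igfbp6 are left out for low reads. Igf1, Igfbp2 and Igfbp3 lie between 0.84 and 3.98 in all pairs, and the receptors and Igfbp4 lie between -0.62 and 0.26.

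Most of the variation in these genes lay between replicate numbers rather than between the populations. For Igfbp4 the replicate number took 97.0% of the sum of squares over the 6 libraries on the log2 scale and the population 2.24%. For Igfbp2 the shares were 84.5% and 12.9%, for Igfbp7 82.8% and 15.2%, for Igf1r 76.7% and 2.59%, for Igf2r 75.7% and 11.6%, and for Igfbp3 75.4% and 20.5%. Igf1, picked for its rise, had 2.98% between numbers and 81.8% between populations. Igfbp5 had 17.0% and 15.1%, leaving most of its variation with neither. Over all genes the medians were 66.4% between numbers and 9.02% between populations. Igfbp2 ranged 871-fold over the 6 libraries and Igfbp3 175-fold, against 8.58-fold for Igfbp4, 4.07-fold for Igfbp7, 2.22-fold for Igfbp5 and 2.08-fold for Igf2r.

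**Figure D3:**
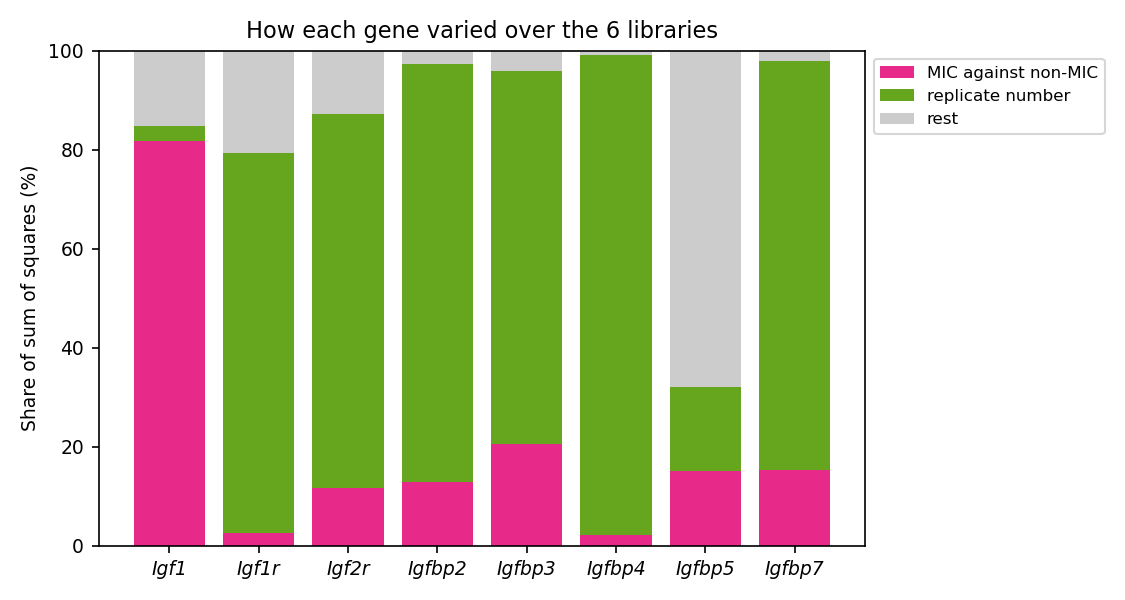
Stacked bars give the share (%) of each gene's sum of squares in log2(value + 1) over the 6 libraries that lies between MICs and non-MICs, between replicate numbers, and in the rest. Replicate number takes 75.4% or more in 6 of the 8 genes shown, and the population takes 81.8% in Igf1, which was picked on that difference.

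The make-up of the binding protein transcripts therefore differed by pair. Igfbp2, Igfbp4 and Igfbp7 together took 90.1% to 98.1% of the summed RPKM of the 6 binding protein genes. Igfbp2 led in MIC replicate 1 with 42.1%, against 9.04% in non-MIC replicate 1, where Igfbp4 led with 48.0%. In pair 2 Igfbp4 led in both populations, with 62.2% in MICs and 78.5% in non-MICs. In pair 3 Igfbp7 led in both, with 77.6% and 65.6%, while Igfbp2 held 0.900% and 0.152%. The share of Igfbp2 was higher in MICs and that of Igfbp4 lower in MICs in each pair, the latter at 21.0%, 62.2% and 15.8% against 48.0%, 78.5% and 24.4%. The 6 genes summed to 369, 204 and 144 RPKM in MICs against 185, 249 and 107 in non-MICs, and the MIC sum exceeded its partner in pairs 1 and 3 but not in pair 2. The ligands summed to at most 0.344 RPKM in any library, so transcripts of the binding proteins outnumbered those of the ligands everywhere.

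**Figure D4:**
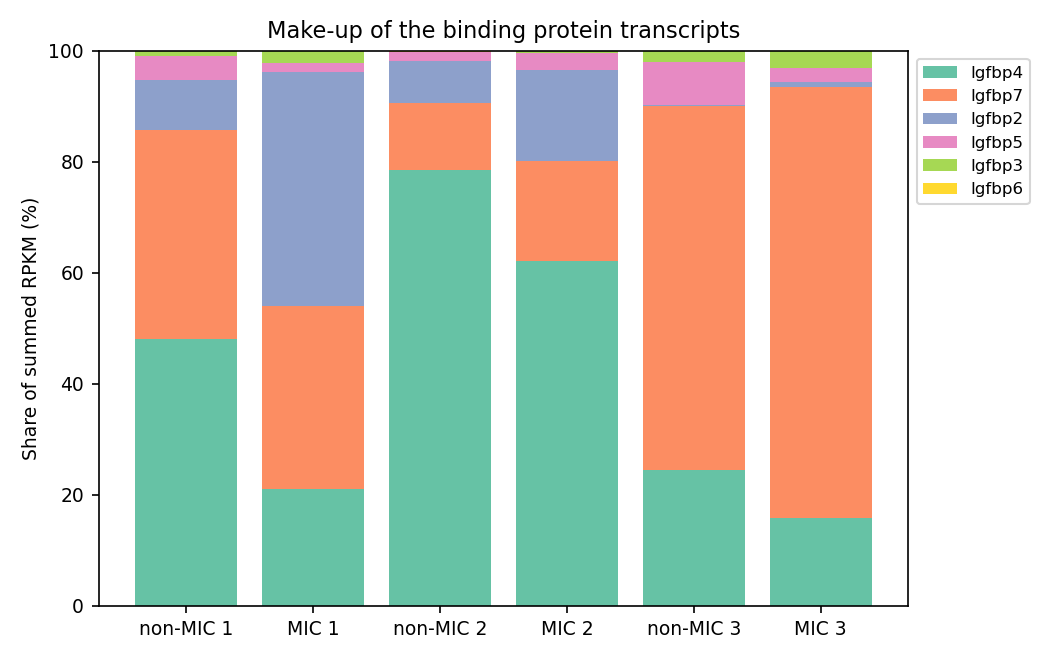
Stacked bars give the share (%) of each of 6 binding protein genes in their summed RPKM, 1 bar per library in same-numbered pairs. Igfbp4 leads in both libraries of pair 2, Igfbp7 in both of pair 3, and Igfbp2 in MIC replicate 1 with 42.1%.

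Likeness between genes was described by Pearson's r of log2(value + 1) over the same 6 libraries, which share pairs and depth. Among the members with a mean of at least 100 reads, Igfbp3 and Igfbp7 were the most alike (r = 0.94), both being low in pair 2, and Igf1r and Igf2r had r = 0.82. Igf2r was opposite to Igfbp3 (r = -0.82), and the chromosomal neighbours Igfbp2 and Igfbp5 had r = -0.12. Over 11277 genes at this level, the gene most like Igfbp2 was Palld (r = 0.991), which encodes an actin-bundling protein, and the second-ranked was Sbds (r = 0.990). For Igfbp7 the nearest were Itgb3 (r = 0.989), an integrin chain, and Ly75 (r = 0.989), followed by Egfr (r = 0.981), and for Igf2r they were Tshz1 (r = 0.994) and Gnptab (r = 0.993), the latter encoding a subunit of the enzyme that makes the mannose 6-phosphate tag read by the product of Igf2r. Igfbp3 was most like Plekhf2 (r = 0.994) and Igfbp4 most like Thap3 (r = 0.999). With 6 libraries and so many genes searched, values of this size are a description of the closest genes.

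The rest of the pathway was followed in 8 lists that together named 97 genes, 92 of them with values here. Limma called 0 of the 92 without the block and 0 with it, with 2 and 14 at an unadjusted p under 0.05. Of the 22310 genes, 322 and 2501 were under it in the same fits. The edgeR test with the block called 4 of the 92, all higher in MICs, beside 1.41% of all genes in either direction. The median log2 difference of the 92 was -0.05, against -0.04 over all genes. In all 3 pairs, 16 of the 92 had the higher value in MICs and 27 the lower, beside 12.5% and 18.8% of all genes.

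Among hormone inputs, Ghr, which encodes the growth hormone receptor that drives Igf1 transcription in many tissues, was one of the 4. It was at 6.78, 8.36 and 2.54 RPKM in MICs and 2.73, 5.34 and 1.98 in non-MICs, with differences within pairs of 1.31, 0.65 and 0.36 on the log2 scale and overlapping groups. Its log2 difference was 0.77 (standard error 0.20 with the block), with an adjusted p of 0.0112 in edgeR with the block and 0.286 in limma with the block. Prlr, the prolactin receptor gene and also a marker of luminal cells, had differences of -1.35, -0.28 and -0.89 and did not pass (edgeR with the block, adjusted p = 0.0856; limma with the block, 0.417). Of the 9 genes of this list, 8 had a difference below 0, Ghr being the exception, while 10229 of all 22310 genes lay above 0. Esr1, Pgr and Nr3c1 were near 0, at -0.02, -0.03 and -0.04.

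The proteases that release IGFs from their binding proteins, with their inhibitors, held further calls, those of Mmp9 and Mmp2 among them. Mmp9, a gelatinase gene, had 5704, 128 and 7038 reads in MICs and 965, 80 and 4255 in non-MICs, and its log2 difference was 1.34 (adjusted p = 1.09e-07 in edgeR with the block and 0.183 in limma with the block). Mmp2, the gene of the other gelatinase, had 997, 89 and 204 reads in MICs and 551, 76 and 50 in non-MICs. Its log2 difference was 1.04 (adjusted p = 0.00309 and 0.385 in the same fits). In all 3 pairs, 7 of the 17 genes of this list were above their non-MIC value and 2 below it, beside 12.5% and 18.8% of all genes. Pappa, which encodes the protease that cleaves the product of Igfbp4, had a log2 difference of -0.15 and did not pass (limma with the block, adjusted p = 0.805); it was chosen after its values were seen, for its tie to the most abundant binding protein.

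Receptor-proximal signaling genes lay mostly below 0, with 4 of 27 above it and a median log2 difference of -0.21. Over all genes, 10229 of 22310 were above 0 and the median was -0.04. In all 3 pairs, 14 were lower in MICs, beside 18.8% of all genes, and 1, Grb14, was higher. With the block, limma and edgeR called 0 of them. In limma with the block 3 of the 27 had an unadjusted p under 0.05, as did 2501 of the 22310 genes. Irs1, the adaptor that docks on the activated receptor, was at 4.11, 8.14 and 7.92 RPKM in MICs and 11.0, 8.96 and 8.52 in non-MICs, without overlap, and its log2 difference of -0.55 did not pass (limma adjusted p = 0.423 with the block, and 0.167 in edgeR with the block). Sh2b1, which encodes another adaptor of these receptors, had a log2 difference of -0.57 (limma adjusted p = 0.417 with the block). Insr, the insulin receptor gene, which belongs to the list of further ligands, receptors and binding proteins, was at 2.08, 3.21 and 3.98 RPKM in MICs and 4.18, 3.30 and 4.15 in non-MICs and did not pass (limma adjusted p = 0.499 with the block). In all 3 of these genes the difference was widest in pair 1.

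The remaining lists held no call by limma or edgeR with the block. The further ligands, receptors and binding proteins, 7 of 11 with values, had a median log2 difference of -0.01. FOXO factors and targets, which are held down by IGF and insulin signaling, had a median log2 difference of -0.05. In all 3 pairs 1 of 18 was above and 6 were below their non-MIC value, beside 12.5% and 18.8% of all genes. Foxo3 had a log2 difference of -0.46 and Pik3ip1 one of 0.46, neither of which passed. The 5 measured CCN genes, whose products carry a domain like that of the binding proteins, had a median of 0.42, with Ccn2 at 0.57 and Ccn4 at 0.42. Crim1 and Igsf10, other genes with such a domain, had log2 differences of 0.57 and 0.87 and were higher in MICs in all 3 pairs. The mannose 6-phosphate genes had a median of -0.04, with M6pr, the gene of the smaller receptor for this tag, at 0.25.

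**Figure D5:**
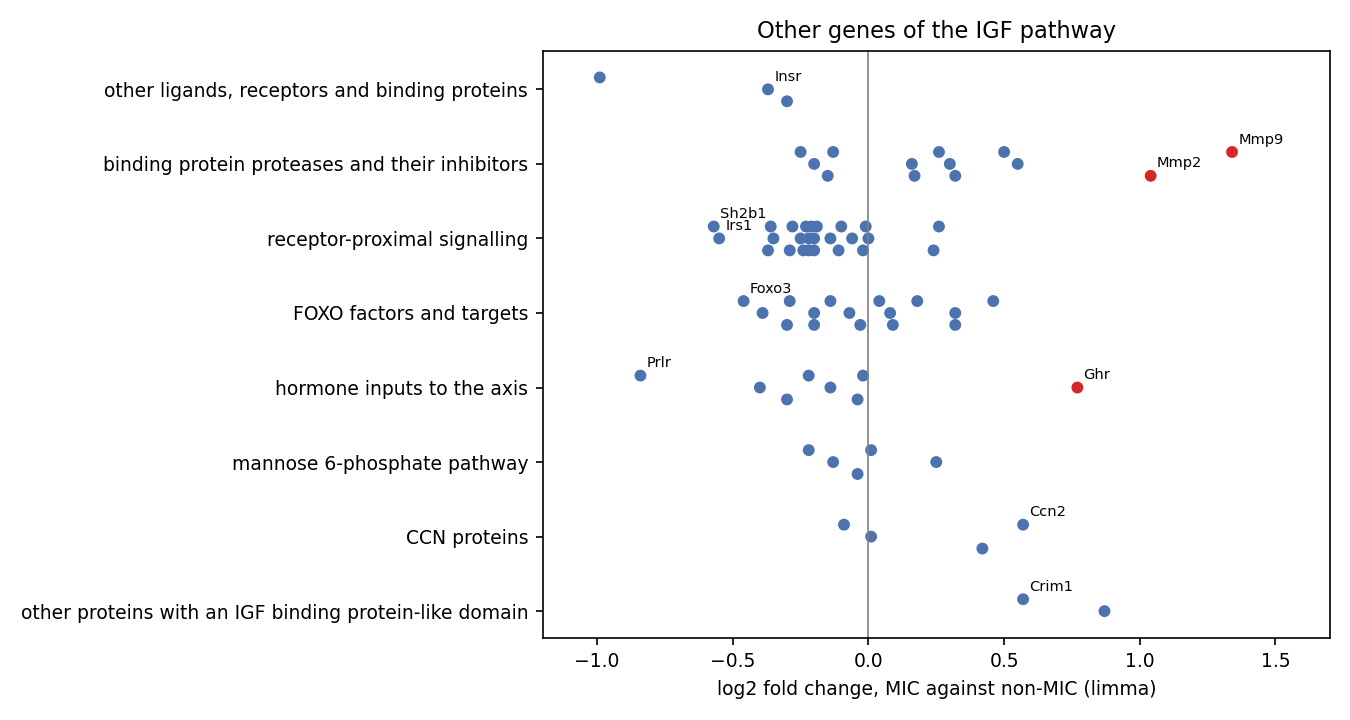
Each point is a gene with a mean of at least 50 reads, at its log2 fold change between MICs and non-MICs on the horizontal axis, in 8 lists of pathway genes on the vertical axis; red points were called by edgeR with the replicate block. The red points, Ghr, Mmp9 and Mmp2, all lie above 0, and receptor-proximal genes lie mostly below 0.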

How the data were processed

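Reads of 75 cycles from stranded TruSeq mRNA libraries were aligned to the mouse transcriptome (GRCm38) and counted per gene. The methods name Bowtie2 and samtools and the submitters' processing notes name STAR and HTSeq, without versions. The authors scaled the counts to library size and kept genes expressed in a minimum share of samples (here at least 3 of 6), so the signal as deposited is a scaled count with one common total for the libraries. Between 99.97% and 100.0% of a library's values were whole multiples, within 0.01, of its value of 1 read, and these gave the recovered reads. The replicates are independent experiments or tumors per the study. Without the block, p-values rest on the spread between these libraries, and with it on the spread of the differences within pairs. Names, positions and exon lengths came from GENCODE vM21.

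Differences were tested with limma 3.58.1 (R 4.3.3) on log2(value + 1), eBayes with a trend, two-sided, with Benjamini-Hochberg adjustment over 22310 genes at 0.05, without a block after the unpaired ranking in the study. Recovered reads were tested with edgeR 4.0.16 and DESeq2 1.42.0. The libraries were paired by number, although the labels do not state a shared tumor. Departures from group means correlated at 0.573, 0.668 and 0.746 within numbers 1, 2 and 3. Correlations across numbers were below 0. Since departures sum to 0 within each group, such values largely follow from those within numbers and are no added evidence of pairing. The procedures were also run on simulated data, which gave every gene the same spread between pairs, and no result here rests on that run. The members, lists and rules were chosen with earlier results of these data known. Named pathway genes were those called by limma and otherwise up to 2 per direction and list with the largest change, the same direction in 3 pairs and a mean of 50 reads or more; Pappa, H19 and genes called by edgeR alone were added after their values were seen. One pathway gene is counted in the lists but not reported here.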

Additional observations from a re-analysis of the deposited data

How the results depend on the processing

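Without the block, limma called 0 genes, 0 of the 8 tested members and 0 pathway genes, and no change of pseudocount (0.1 or 10), low-value filter, TMM or quantile scaling or variance trend moved these counts. The replicate block gave 29 genes and 1 member, and 32 genes and 1 member with TMM scaling, an alternative added after the data were seen. edgeR with the block gave 315 genes, 1 member and 4 pathway genes, and DESeq2 gave 1 gene without the block and 133 genes and 2 pathway genes with it. Leaving out a library without the block gave 0 genes, 0 members and 0 pathway genes, and leaving out a pair with it gave 0 to 59 genes (11 without pair 1, 59 without pair 2 and 0 without pair 3, where 2274 had an unadjusted p under 0.05), 0 to 1 member and 0 pathway genes. The direction of Igfbp2 and Igfbp7 was kept in each alternative, with Igfbp2 between 0.10 (without non-MIC replicate 3, no block) and 4.24 (without MIC replicate 3) and Igfbp7 between 0.18 (without non-MIC replicate 2) and 1.14 (without MIC replicate 2). Igf1 ranged from 1.94 to 3.32 and Igfbp3 from 0.41 to 3.39, with a direction that their choice fixed beforehand. Small differences turned when 1 library or pair was left out: the log2 value ranged from -0.28 to 0.11 for Igf1r (from -0.26 to 0.02 with the block), from -0.38 to 0.03 for Igf2r, from -1.12 to 0.37 for Igfbp4 and from -0.77 to 0.08 for Igfbp5. Igf1, absent from the filtered set, has no value there. No fold change is reported for Igf2 and Igfbp6, whose reads are too few. Both were fitted like the other genes and count in the median of the 8 tested members.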
